A study of Homo sapiens with 6 samples.

Results

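Potassium channel genes were followed in SH-SY5Y cells, a human neuroblastoma line with sympathetic neuron features, after knockdown of TARDBP, the gene of the RNA-binding protein TDP-43. The members were the gene symbols that begin with KCN, the root shared by the pore-forming subunits of potassium channels and many of their auxiliary subunits. Antisense, intronic, overlapping and readthrough symbols were left out. This gave 97 members of 27961 genes in the count files, and 20 KCN symbols were left out. The cells received lentivirus with polybrene at 8 µg/mL and were selected with puromycin at 2 µg/mL, begun 48 hours after infection and kept up for 3 days. There were 2 libraries for each of 3 hairpins: the TARDBP hairpin (TRCN0000016038), control hairpin 1 (SHC007) and control hairpin 2 (SHC016). Knockdown rested on 1 hairpin, and all groups carried a lentiviral hairpin and puromycin selection, with no uninfected library analysed here. The labels do not tie the 2 libraries of a hairpin to separate cultures or infections, so p-values here rest on a library-to-library spread that may be technical alone. In bulk RNA, fewer cells of a type and less RNA per cell cannot be told apart.

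Potassium channels let potassium leave the cell along its gradient, which sets the resting potential, ends the action potential and limits repetitive firing. A channel of the voltage-gated, inward rectifier and calcium- or sodium-activated classes joins subunits around 1 pore, whereas a two-pore subunit carries a pair of pore loops. Auxiliary subunits alter gating or delivery to the membrane. In sympathetic neurons the M-current of the KCNQ family, which muscarinic receptors close, is a classical brake on firing. TDP-43 binds runs of UG in RNA, mostly in introns and 3' untranslated regions (UTRs).

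Such runs were looked for in the longest coding transcript of each member in GENCODE release 29 (GRCh38), on the transcript's own strand, as at least 6 TG units in a row (TGTGTGTGTGTG). Of the 97 members 7 held one (7.22%), against 4.42% of 19122 genes with a coding transcript. The median transcript length was 4104 bases for the members and 2972.5 bases for all genes, and no correction for length was made. Among tested members the run stood in 2 of the 17 that were lower with the TARDBP hairpin, in 0 of the 9 that were higher and in 2 of the 25 that did not pass the test. The last pair was KCNJ12 and KCNN3. KCNJ3 was among the lower members, and its site is shown with that of KCNN3 for comparison, since these are places in the mature transcripts that match TDP-43's known letters. The capitals mark the run. Both lie in the 3' UTR. A match is a description and not a measured binding site, and introns were not searched.
KCNJ3 (plus strand, GRCh38 chr2:154855724-154855753): tatatgtcTGTGTGTGTGTGTGtatgtata
KCNN3 (minus strand, GRCh38 chr1:154699446-154699475): aaatatgtaTGTGTGTGTGTGacgtgtatg

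Levels are given as CPM (counts-per-million, with library sizes scaled by TMM factors), which compares a gene between libraries but not genes of different length with each other. Each change is a log2 fold change, written log2FC, with a standard error, written SE, from 1 edgeR quasi-likelihood model of all 6 libraries. A gene was called, and is written as having risen or fallen, at a Benjamini-Hochberg adjusted p below 0.05 over all 17163 genes and repeat families tested. Library totals ran from 18605745 to 21698339 counts. TARDBP itself had 365 and 462 counts with the TARDBP hairpin, against 1587 and 1478 under control hairpin 1 and 1761 and 1730 under control hairpin 2. Several marker lists moved with the groups. The summed level of 8 fibroblast markers was 287 and 330 CPM with the TARDBP hairpin, 1494 and 1508 under control hairpin 1, and 1871 and 1995 under control hairpin 2. COL3A1 dominated the control sums, with 52.0 and 63.7, 1321 and 1307, and 1583 and 1652 CPM in that order. The list did not move as one, since against the mean of both control hairpins 5 of the 8 fell and 2 rose (DCN, log2FC 2.43, and PDGFRA, log2FC 1.87). Proliferation markers summed to 71.3 and 73.0, 120 and 194, and 531 and 558 CPM in the same order of hairpins. PCNA, which was not called against the mean, gave 52.3 and 56.5 CPM of the knockdown sums. The other 5 of the list fell, with MKI67 at 1.14 and 0.883, 32.3 and 65.0, and 196 and 209 CPM. Of the 10 noradrenergic neuroblastoma markers, TH alone stayed under 1 CPM in every library. The list summed to 1281 and 1138, 2180 and 2428, and 1665 and 1814 CPM. This sum hid larger changes, since 7 of its 9 tested genes fell and GATA3 rose (log2FC 0.35) when compared with the control mean. DBH fell most (log2FC -3.83), followed by CHGA (log2FC -3.10). Epithelial markers summed to 36.0 and 29.4, 10.8 and 15.3, and 82.8 and 133 CPM, with CDH1 under 1 CPM in every library. The astrocyte list summed to 3.06 to 16.2 CPM, the leukocyte list to 5.82 to 19.1 CPM and the endothelial list to 0.364 to 1.57 CPM over the 6 libraries. All 5 endothelial markers, 4 of 5 leukocyte markers and 3 of 5 astrocyte markers were under 1 CPM in every library. The part of these shifts in the potassium channel results was not tested.

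The SH-SY5Y libraries held a broad but partial set of potassium channel genes. Of the 97 members 51 had enough counts to be tested, 31 had between 1 and 55 counts over all 6 libraries and fell under the filter, and 15 had no count in any library. Those 15 were KCNA1, KCNA5, KCNA10, KCNC2, KCND2, KCNE1B, KCNE3, KCNJ6, KCNJ15, KCNJ16, KCNK2, KCNK16, KCNK17, KCNK18 and KCNV1. A count of 0 in 118986736 counts allows up to 0.0252 CPM, counting error only. All 8 KCNH genes were tested, but 1 of 8 KCNA genes, 7 of 16 KCNJ genes and 9 of 15 KCNK genes. The 31 under the filter were spread over 9 of the 11 classes, with 8 auxiliary subunits, 6 KCNJ genes and 5 silent subunits among them. The members together took 11035 and 10147 counts with the TARDBP hairpin, which is 542 and 526 CPM of the unscaled library totals. The same share was 686 and 755 CPM with control hairpin 1 and 696 and 708 CPM with control hairpin 2. The 2 knockdown libraries thus lay below all 4 control libraries in this sum, in which the most abundant genes weigh most.

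Per kilobase of merged exons (GENCODE release 29, not the annotation used for counting), the ether-à-go-go-related gene KCNH2, whose channel is known as hERG, had the highest level of any member in every library. It stood at 46.1 and 41.9 CPM per kilobase with the TARDBP hairpin, 28.3 and 39.0 under control hairpin 1, and 47.7 and 54.7 under control hairpin 2. KCNK1 came well below it in the mean over libraries at 7.0 CPM per kilobase, KCNH8 at 4.88, KCNJ8 at 4.60 and KCNG1 at 4.23. KCNK1 itself had 4.91 and 5.43 CPM per kilobase in the knockdown libraries.

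Setting the TARDBP hairpin against the average of the control hairpins asks which of these genes differ in cells that carry it. No other hairpin against TARDBP was used, so whether a difference follows from lowered TARDBP itself was not tested. Members of several classes passed the test, and both directions occurred. KCNH1 and KCNT1 were among the falls with the lowest p-values, and KCNQ5 and KCNC4 rose with the lowest p-values among the rises. Of the 51 tested members 9 rose and 17 fell, and 25 did not pass the test. The share called, 51%, was near that of all genes and families tested, where it was 48.2%. Rises made up 17.6% of the tested members against 23.9% of all genes and families, and falls 33.3% against 24.3%. The median log2FC was -0.24 over the members and 0.04 over all genes and families. Both knockdown libraries lay outside the range of all 4 control libraries for 20 of the 26 called members, 7 above and 13 below. Over all genes and families tested that was so for 46.1% (23.3% above, 22.8% below), and over the tested members, called or not, for 8 above and 15 below.

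**Figure D1:**
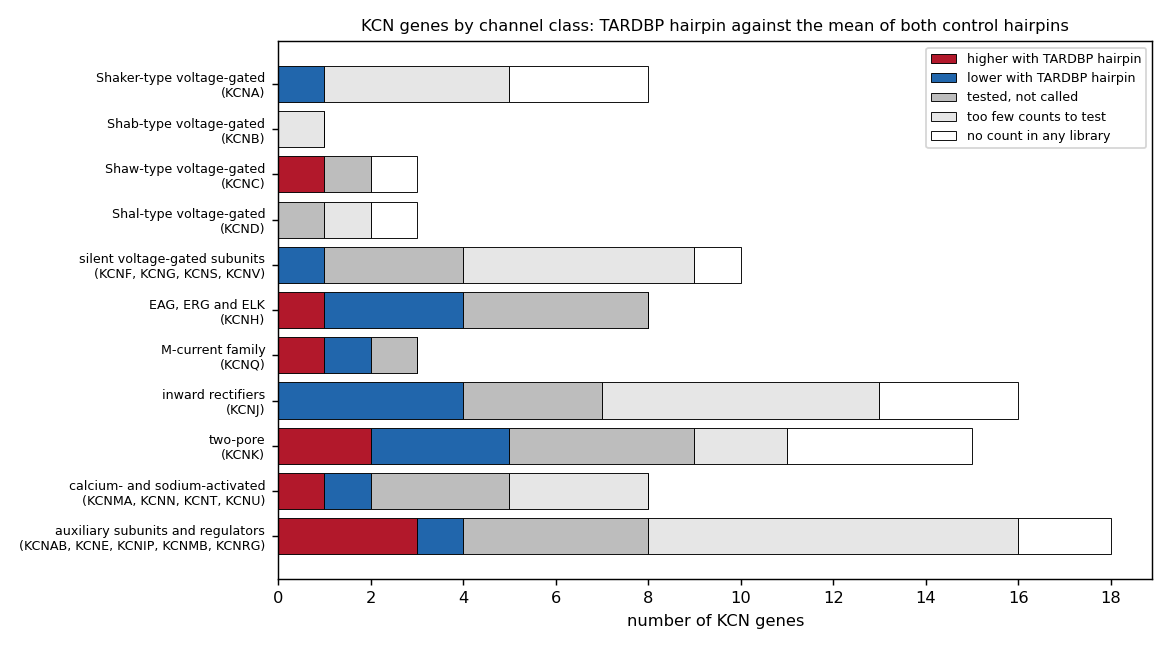
Number of KCN genes in each of the 11 channel classes, 93 genes drawn, split by result against the mean of both control hairpins (red, higher with the TARDBP hairpin; blue, lower; dark grey, tested and not called; light grey, too few counts to test; white, no count in any library). Inward rectifiers show 4 falls and no rise, and auxiliary subunits 3 rises and 1 fall.

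**Figure D2:**
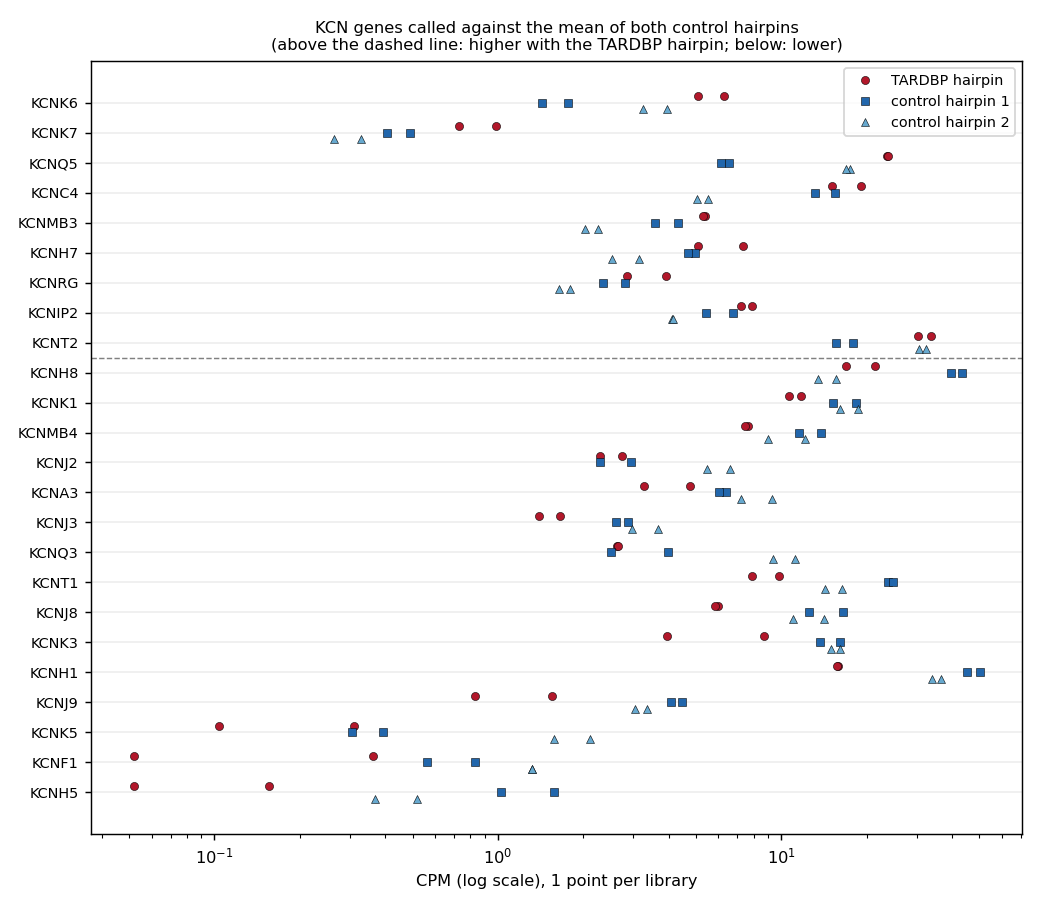
CPM on a log axis in each library for 24 of the 26 KCN genes called against the mean of both control hairpins, ordered by log2FC, with 9 rises above the dashed line and 15 falls below it. Red circles are the TARDBP hairpin, dark squares control hairpin 1 and light triangles control hairpin 2, and for KCNT2, KCNC4, KCNH8, KCNJ2, KCNQ3 and KCNK5 the knockdown libraries are not outside the range of the 4 control libraries.

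The M-current family split. KCNQ3, a subunit of the classical M-channel, fell, KCNQ5, a further subunit able to join KCNQ3, rose, and KCNQ1, the subunit best known from heart and epithelia, did not pass the test. KCNQ5 had 23.5 and 23.8 CPM with the TARDBP hairpin, 6.12 and 6.51 CPM with control hairpin 1, and 17.5 and 16.9 CPM with control hairpin 2. Both knockdown libraries exceeded the other 4, with control hairpin 1 far below and control hairpin 2 just below them. The log2FC was 1.18 (SE 0.0994, adjusted p = 5.4e-05), with 1.90 against control hairpin 1 and 0.46 against control hairpin 2 (adjusted p = 0.0105). The call against control hairpin 2 was lost without control hairpin 2 replicate 2 (adjusted p = 0.0894).

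KCNQ3 had 2.64 and 2.65 CPM with the TARDBP hairpin, 2.5 and 3.97 CPM with control hairpin 1, and 11.2 and 9.38 CPM with control hairpin 2. The knockdown libraries fell within the values of control hairpin 1 and well below control hairpin 2. Accordingly the log2FC of -1.12 against the mean (SE 0.219, adjusted p = 0.0034) was made up of -1.95 against control hairpin 2 (adjusted p = 2.96e-04) and -0.29 against control hairpin 1 (adjusted p = 0.391). KCNQ1 had 4.29 and 1.92 CPM with the TARDBP hairpin, against 5.91 and 5.39 under control hairpin 1 and 4.53 and 4.48 under control hairpin 2, with a log2FC of -0.70 that did not pass (adjusted p = 0.0684). Its antisense partner KCNQ1OT1, at 112 and 125, 228 and 219, and 140 and 121 CPM in the same order, was far more abundant, and without the strand setting of the counting the reads of the overlapping genes cannot be told apart.

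The EAG, ERG and ELK class (KCNH) includes KCNH1 and KCNH5 (EAG channels), KCNH2, KCNH6 and KCNH7 (ERG channels, which deactivate slowly) and KCNH3, KCNH4 and KCNH8 (ELK channels). Of the 8 genes 3 fell and 1 rose against the mean, with a median log2FC of -0.28. The share called, 50%, was near the 48.2% of all genes and families. Both EAG genes fell, KCNH7 rose and KCNH8 fell by a small amount. KCNH1 had 15.9 and 15.7 CPM with the TARDBP hairpin, 50.3 and 45.3 CPM with control hairpin 1, and 34.0 and 36.7 CPM with control hairpin 2. The knockdown libraries lay close together and below every control library. Its log2FC was -1.38 (SE 0.0992, adjusted p = 2.68e-05), and it fell against each control hairpin (log2FC -1.60 and -1.16). KCNH5 was rare, with 3 and 1 counts with the TARDBP hairpin, 31 and 21 under control hairpin 1, and 7 and 11 under control hairpin 2. The knockdown counts were the lowest of the 6, although so few counts leave its size uncertain (log2FC -2.81, SE 0.582, adjusted p = 0.00459, and -3.73 without knockdown replicate 1). Its fall against control hairpin 2 (log2FC -2.04, adjusted p = 0.0379) was lost without any one of 4 libraries.

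KCNH7 stood at 7.29 and 5.09 CPM with the TARDBP hairpin, 4.94 and 4.70 CPM with control hairpin 1, and 2.53 and 3.16 CPM with control hairpin 2. The knockdown libraries were the 2 highest, the lower of them by a narrow margin over control hairpin 1 (log2FC 0.74, SE 0.190, adjusted p = 0.0126). Without knockdown replicate 1 it no longer passed (log2FC 0.45, adjusted p = 0.130), and it did not pass against control hairpin 1 alone (adjusted p = 0.217). KCNH2, the most abundant member, had 234 and 212 CPM with the TARDBP hairpin, 143 and 198 CPM with control hairpin 1, and 242 and 277 CPM with control hairpin 2. Its log2FC of 0.08 did not pass (SE 0.129, adjusted p = 0.615). KCNH3, KCNH4 and KCNH6 did not pass either, with log2FC from -0.31 to 0.14.

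Among the other pore-forming voltage-gated genes, KCNA3 fell and KCNC4 rose. KCNA3, a Shaker-type gene best known from T lymphocytes and the sole tested member of its class, had 4.76 and 3.27 CPM with the TARDBP hairpin, 6.37 and 6.02 CPM with control hairpin 1, and 9.27 and 7.21 CPM with control hairpin 2. The knockdown libraries were the 2 lowest (log2FC -0.83, SE 0.197, adjusted p = 0.00887), and it did not pass without knockdown replicate 2 (log2FC -0.59). KCNA3 passed against control hairpin 2 (log2FC -1.03, adjusted p = 0.00516) but not against control hairpin 1 (log2FC -0.62, adjusted p = 0.0523).

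The Shaw-type genes KCNC1 and KCNC4 serve rapid repolarization in fast-firing neurons, KCNC4 with a quickly inactivating current. KCNC4 stood at 19.1 and 15.1 CPM with the TARDBP hairpin, 15.5 and 13.1 CPM with control hairpin 1, and 5.53 and 5.04 CPM with control hairpin 2. The knockdown values overlapped those of control hairpin 1 and were about level with them, while both lay above control hairpin 2. The log2FC of 0.98 against the mean (SE 0.140, adjusted p = 7.14e-04) therefore rested on control hairpin 2 (log2FC 1.70, adjusted p = 1.37e-04), with 0.26 against control hairpin 1 (adjusted p = 0.223). KCNC1 (log2FC -0.55, adjusted p = 0.0621) and the sole tested Shal-type gene KCND1 (log2FC 0.10, adjusted p = 0.652) did not pass.

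Silent subunits form no channel alone and change the behaviour of the Shab-type channels they join. Of 4 tested KCNF1 fell against the mean and KCNG1, KCNG3 and KCNS1 did not pass (25% called, against 48.2% of all genes and families). KCNF1 had 7 and 1 counts with the TARDBP hairpin, 11 and 17 under control hairpin 1, and 25 and 28 under control hairpin 2. The knockdown counts were the lowest of the 6, but the log2FC of -2.18 (SE 0.549, adjusted p = 0.0114) moved to -4.06 without knockdown replicate 1 and lost its call at -1.39 without knockdown replicate 2. KCNF1 passed against control hairpin 2 (log2FC -2.63, adjusted p = 0.0057) but not against control hairpin 1 (log2FC -1.72, adjusted p = 0.0576). KCNG1 stood at 7.71 and 6.96 CPM with the TARDBP hairpin, 9.89 and 8.57 CPM with control hairpin 1, and 8.95 and 14.1 CPM with control hairpin 2. Its knockdown libraries were the 2 lowest, yet it passed against control hairpin 2 only (log2FC -0.65, adjusted p = 0.0365, against -0.49 and adjusted p = 0.0669 for the mean), and that call was lost without any one of 3 libraries. KCNS1 had 0.983 and 0.623 CPM with the TARDBP hairpin, 0.612 and 0.686 CPM with control hairpin 1, and 2.26 and 2.5 CPM with control hairpin 2. The knockdown values overlapped those of control hairpin 1, and the gene fell against control hairpin 2 alone (log2FC -1.56, adjusted p = 0.00371).

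**Figure D3:**
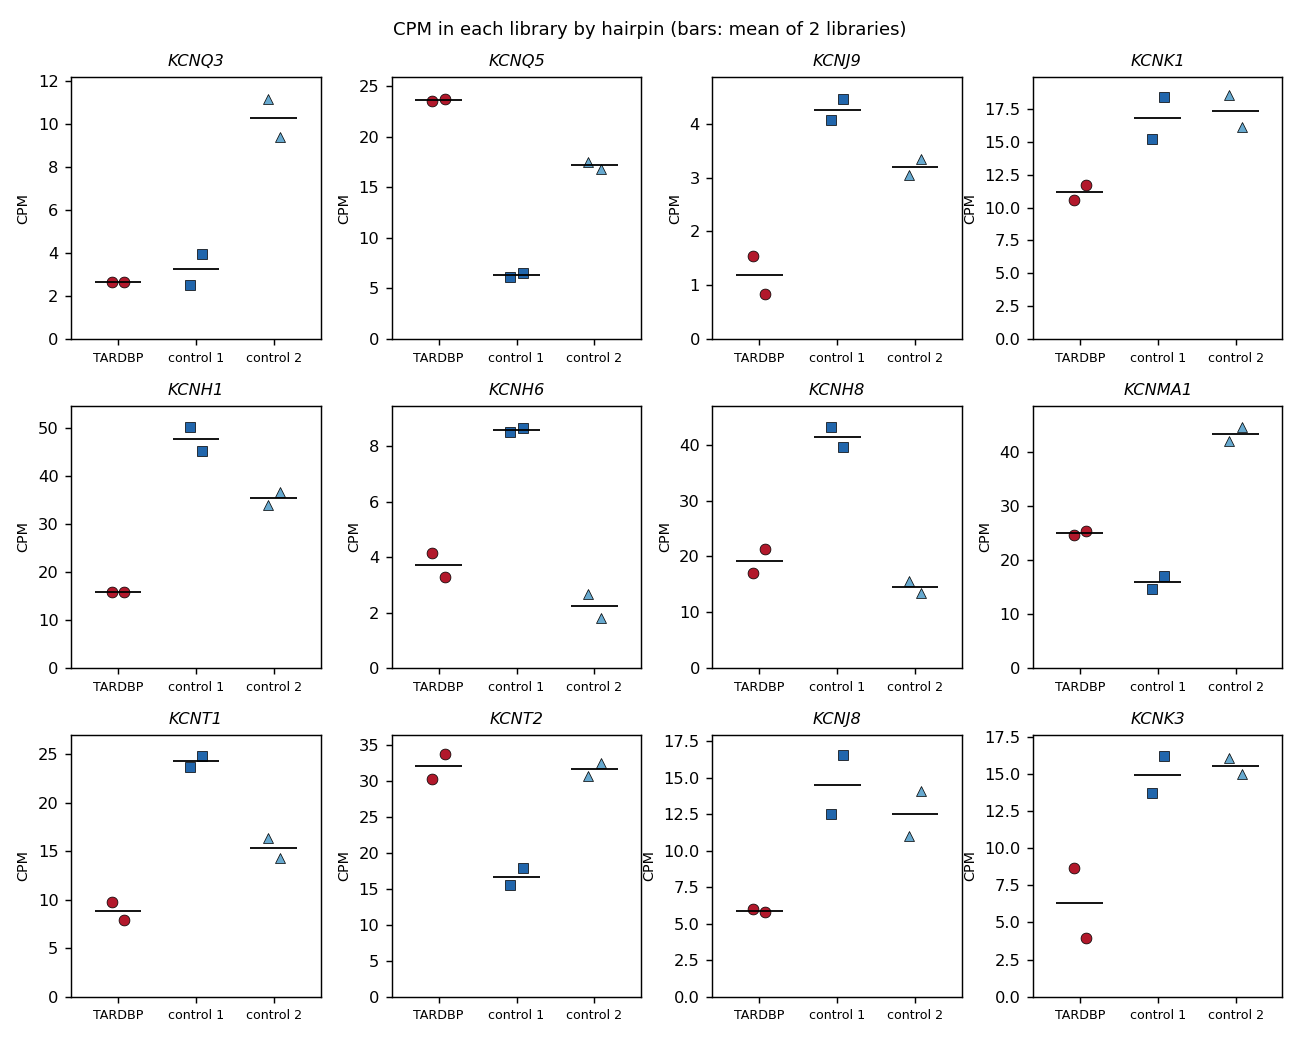
CPM in each library (points) and the mean of 2 libraries (bars) for 12 KCN genes chosen after their values were seen, with the TARDBP hairpin at the left, then control hairpins 1 and 2, and each axis starting at 0. KCNH1, KCNT1, KCNJ8, KCNJ9, KCNK1 and KCNK3 are lowest with the TARDBP hairpin, KCNQ5 is highest there, and KCNH6, KCNH8 and KCNMA1 lie between the control hairpins.

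No inward rectifier gene rose against the mean, where 23.9% of all genes and families did. Of 7 tested 4 fell (57.1%, against 24.3% of all genes and families), with a median log2FC of -0.66. KCNJ3 and KCNJ9 encode subunits of the channels opened by G proteins after inhibitory receptors are bound, and KCNJ8 encodes a pore of the ATP-sensitive channel. KCNJ8 had 6.00 and 5.82 CPM with the TARDBP hairpin, 12.5 and 16.6 CPM with control hairpin 1, and 11 and 14.1 CPM with control hairpin 2. Knockdown values were near each other and below all 4 control libraries, and the control hairpins overlapped. Its log2FC was -1.19 (SE 0.173, adjusted p = 7.88e-04). KCNJ9 stood at 1.55 and 0.831 CPM with the TARDBP hairpin, 4.08 and 4.46 CPM with control hairpin 1, and 3.05 and 3.34 CPM with control hairpin 2. KCNJ3 had 1.40 and 1.66, 2.6 and 2.89, and 3.69 and 2.97 CPM in the same order. Both tested G protein-gated subunits were lowest in the 2 knockdown libraries, with a log2FC of -1.63 (SE 0.263, adjusted p = 0.00136) for KCNJ9 and -0.98 (SE 0.219, adjusted p = 0.00666) for KCNJ3.

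KCNJ8, KCNJ9 and KCNJ3 also fell against each control hairpin alone, though KCNJ3 did not pass against control hairpin 1 without any one of 4 libraries. KCNJ2, the classical strong inward rectifier, averaged 2.51 ± 0.323 CPM with the TARDBP hairpin, 2.62 ± 0.455 under control hairpin 1 and 6.02 ± 0.789 under control hairpin 2 (SD, n = 2 each). It fell against the mean (log2FC -0.66, adjusted p = 0.0263) and against control hairpin 2 (log2FC -1.26, adjusted p = 0.00201), while the log2FC against control hairpin 1 was -0.06 (adjusted p = 0.862). The call against the mean was lost without any one of 3 libraries (adjusted p = 0.147 without knockdown replicate 2). KCNJ11, KCNJ12 and KCNJ14 did not pass against the mean, with log2FC of -0.15, 0.80 and -0.26. KCNJ12 and KCNJ18 are near-identical copies whose reads may be shared, which leaves the counts of KCNJ12, 2 to 25 per library, uncertain.

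Two-pore channels carry background potassium current. Of 9 tested genes 2 rose and 3 fell against the mean, with a median log2FC of 0.50. Rises were 22.2% against 23.9% of all genes and families, and falls 33.3% against 24.3%. KCNK6, a weak inward rectifier often held inside the cell, had 5.07 and 6.28 CPM with the TARDBP hairpin, 1.43 and 1.76 CPM with control hairpin 1, and 3.95 and 3.25 CPM with control hairpin 2. KCNK6 was highest in the 2 knockdown libraries and lowest with control hairpin 1. The log2FC was 1.24 (SE 0.187, adjusted p = 9.38e-04), with 1.83 against control hairpin 1 and 0.66 against control hairpin 2 (adjusted p = 0.0303), the second lost without any one of 3 libraries. KCNK3, the gene of an acid-sensitive background channel, stood at 8.69 and 3.95 CPM with the TARDBP hairpin, 13.7 and 16.2 CPM with control hairpin 1, and 16.1 and 15 CPM with control hairpin 2. Both knockdown libraries were below the 4 control libraries but differed from each other by more than the controls did. Its log2FC was -1.27 (SE 0.264, adjusted p = 0.00468), and it was -1.95 without knockdown replicate 1 and -0.81 without knockdown replicate 2, called both times.

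KCNK1, a weak inward rectifier related to KCNK6, had 10.6 and 11.7 CPM with the TARDBP hairpin, 15.2 and 18.4 CPM with control hairpin 1, and 18.6 and 16.1 CPM with control hairpin 2. The knockdown libraries were the 2 lowest and the control hairpins overlapped (log2FC -0.61, SE 0.132, adjusted p = 0.00562). KCNK5, a channel opened by alkaline pH, fell (log2FC -1.93, SE 0.503, adjusted p = 0.0132) on 6 and 2 counts with the TARDBP hairpin, 6 and 8 under control hairpin 1, and 30 and 45 under control hairpin 2. Its knockdown counts overlapped those of control hairpin 1, and it did not pass without knockdown replicate 2 (log2FC -1.36, adjusted p = 0.101), while it was -2.89 without knockdown replicate 1 (adjusted p = 0.0180). KCNK7, a subunit with no known current of its own, rose on 19 and 14 counts against 8 and 10 and 5 and 7 counts with control hairpins 1 and 2 (log2FC 1.21, adjusted p = 0.0201), a call lost without any one of 4 libraries. Against control hairpin 1 alone KCNK7 did not pass (log2FC 0.92, adjusted p = 0.0948). KCNK4, KCNK9, KCNK13 and KCNK15 did not pass against the mean (log2FC 0.60, 0.50, -0.38 and 0.59). KCNK4 shares exons with the readthrough symbol KCNK4-TEX40.

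The sodium-activated pair was called in opposite directions against the mean, though KCNT2 did not pass against control hairpin 2. KCNT1 and KCNT2 encode channels opened by intracellular sodium that can join in 1 channel. KCNT1 had 9.78 and 7.89 CPM with the TARDBP hairpin, 23.7 and 24.8 CPM with control hairpin 1, and 16.3 and 14.3 CPM with control hairpin 2. The knockdown libraries lay below every control library, and control hairpin 2 lay below control hairpin 1. Its log2FC was -1.12 (SE 0.133, adjusted p = 2.7e-04), with -1.46 and -0.79 against control hairpins 1 and 2, both called. KCNT2 stood at 30.3 and 33.7 CPM with the TARDBP hairpin, 15.5 and 17.8 CPM with control hairpin 1, and 30.6 and 32.5 CPM with control hairpin 2. The knockdown libraries overlapped control hairpin 2 and exceeded control hairpin 1, so the log2FC of 0.48 (SE 0.101, adjusted p = 0.005) came from control hairpin 1 (log2FC 0.94, adjusted p = 4.6e-04), with 0.02 against control hairpin 2 (adjusted p = 0.909). Without knockdown replicate 2, KCNT2 did not pass against the mean (adjusted p = 0.0513).

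Of the calcium-activated genes none was called against the mean. KCNN1, a small-conductance channel gated through calmodulin, had 10.2 and 6.60 CPM with the TARDBP hairpin, 10.6 and 12.5 CPM with control hairpin 1, and 7.37 and 7.63 CPM with control hairpin 2, and the knockdown libraries overlapped control hairpin 2 and lay below control hairpin 1 (log2FC -0.15, adjusted p = 0.530). KCNN3 had a log2FC of -0.06 (adjusted p = 0.869). KCNMA1, the pore of the large-conductance channel opened by calcium and voltage, had a log2FC of -0.07 (SE 0.0999, adjusted p = 0.583), a mean of opposite differences that is given with the control hairpins below.

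Of the 8 tested auxiliary subunits and regulators 3 rose and 1 fell against the mean, with a median log2FC of 0.52, and the share called (50%) was near the 48.2% of all genes and families. The class had 0 rises and 1 fall against control hairpin 1, and 5 rises and 0 falls against control hairpin 2. Over all genes and families 21.1% rose and 21.8% fell against control hairpin 1, and 24% and 26.2% against control hairpin 2. KCNMB3, KCNIP2 and KCNRG, the 3 that rose against the mean, did not pass against control hairpin 1 (adjusted p = 0.0968, 0.177 and 0.218). The tested beta subunits of the large-conductance channel were called in opposite directions against the mean. Of the single control hairpins, KCNMB3 passed against control hairpin 2 only and KCNMB4 against control hairpin 1 only. KCNMB3 had 5.38 and 5.30 CPM with the TARDBP hairpin, 4.33 and 3.57 CPM with control hairpin 1, and 2.26 and 2.03 CPM with control hairpin 2. KCNMB3 was highest in the 2 knockdown libraries (log2FC 0.87, SE 0.165, adjusted p = 0.0029). KCNMB4, the main beta subunit of brain, had 7.66 and 7.43 CPM with the TARDBP hairpin, 11.5 and 13.8 CPM with control hairpin 1, and 12.1 and 8.95 CPM with control hairpin 2. Its knockdown libraries were the 2 lowest (log2FC -0.61, SE 0.163, adjusted p = 0.0142), and the call was lost without either knockdown library (adjusted p = 0.0549 and 0.0740).

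KCNIP2, a calcium-binding partner of Shal-type channels, stood at 7.19 and 7.89 CPM with the TARDBP hairpin, 6.73 and 5.44 CPM with control hairpin 1, and 4.11 and 4.15 CPM with control hairpin 2. Both knockdown libraries were above the rest, by a small margin over control hairpin 1 (log2FC 0.59, SE 0.148, adjusted p = 0.0112), and it did not pass without knockdown replicate 2 (adjusted p = 0.0743). KCNRG, which encodes a soluble protein that hinders the assembly of Shaker-type channels, averaged 3.39 ± 0.760 CPM with the TARDBP hairpin, 2.58 ± 0.321 under control hairpin 1 and 1.72 ± 0.0997 under control hairpin 2 (SD, n = 2 each; log2FC 0.69, adjusted p = 0.0257), and its call was lost without any one of 4 libraries. KCNAB1, KCNAB2 and KCNAB3, cytosolic beta subunits of Shaker-type channels, and KCNIP4 did not pass against the mean, with log2FC of 0.44, 0.12, 0.44 and 0.82.

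Against control hairpin 1 alone 6 of the 51 tested members rose and 15 fell (21.1% and 21.8% of all genes and families, 42.9% in all), with a median log2FC of -0.27. Against control hairpin 2 alone 12 rose and 18 fell (24% and 26.2% of all genes and families, 50.2% in all), with a median of -0.24. The comparisons share the knockdown libraries, so their calls are not independent of each other. Besides the genes above, KCNK13, a two-pore gene, fell against control hairpin 1 (log2FC -0.68, adjusted p = 0.0282), and KCNJ12 and KCNK9 rose (log2FC 1.74 and 0.89, adjusted p = 0.0386 and 0.0370). KCNAB2 and KCNAB3 rose against control hairpin 2 (log2FC 0.52 and 0.84, adjusted p = 0.0248 and 0.0455). The log2FC of KCNJ12 was 3.22 without control hairpin 1 replicate 2 and 1.03 without control hairpin 1 replicate 1. All 5 of these calls were lost without at least 3 of the 6 libraries, one at a time. Of the 12 rises against control hairpin 2, KCNQ5, KCNH6, KCNH8, KCNK6, KCNK7, KCNRG, KCNAB2 and KCNAB3 were each lost without some library, and 4 members were called higher without control hairpin 2 replicate 2.

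Members called in opposite directions against the control hairpins numbered 3, namely KCNH6, KCNH8 and KCNMA1, and they were singled out after their values were seen. KCNMA1 had 24.7 and 25.4 CPM with the TARDBP hairpin, 14.7 and 17.1 CPM with control hairpin 1, and 42.1 and 44.8 CPM with control hairpin 2. The knockdown libraries sat between the control hairpins without overlap. It rose against control hairpin 1 (log2FC 0.65, SE 0.118, adjusted p = 0.00257) and fell against control hairpin 2 (log2FC -0.80, SE 0.113, adjusted p = 7.18e-04). KCNH6 stood at 4.14 and 3.27 CPM with the TARDBP hairpin, 8.51 and 8.67 CPM with control hairpin 1, and 2.68 and 1.79 CPM with control hairpin 2. KCNH8 had 17.0 and 21.4, 43.3 and 39.7, and 15.6 and 13.4 CPM in the same order. Both fell against control hairpin 1 (log2FC -1.21 and -1.11, adjusted p = 0.00233 and 4.53e-04) and rose against control hairpin 2 (log2FC 0.74 and 0.40, adjusted p = 0.0347 and 0.0498). The rises were lost without any one of 4 libraries for KCNH6 and of 5 for KCNH8, and the fall of KCNH8 against the mean (log2FC -0.36, adjusted p = 0.0464) without any one of 4.

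**Figure D4:**
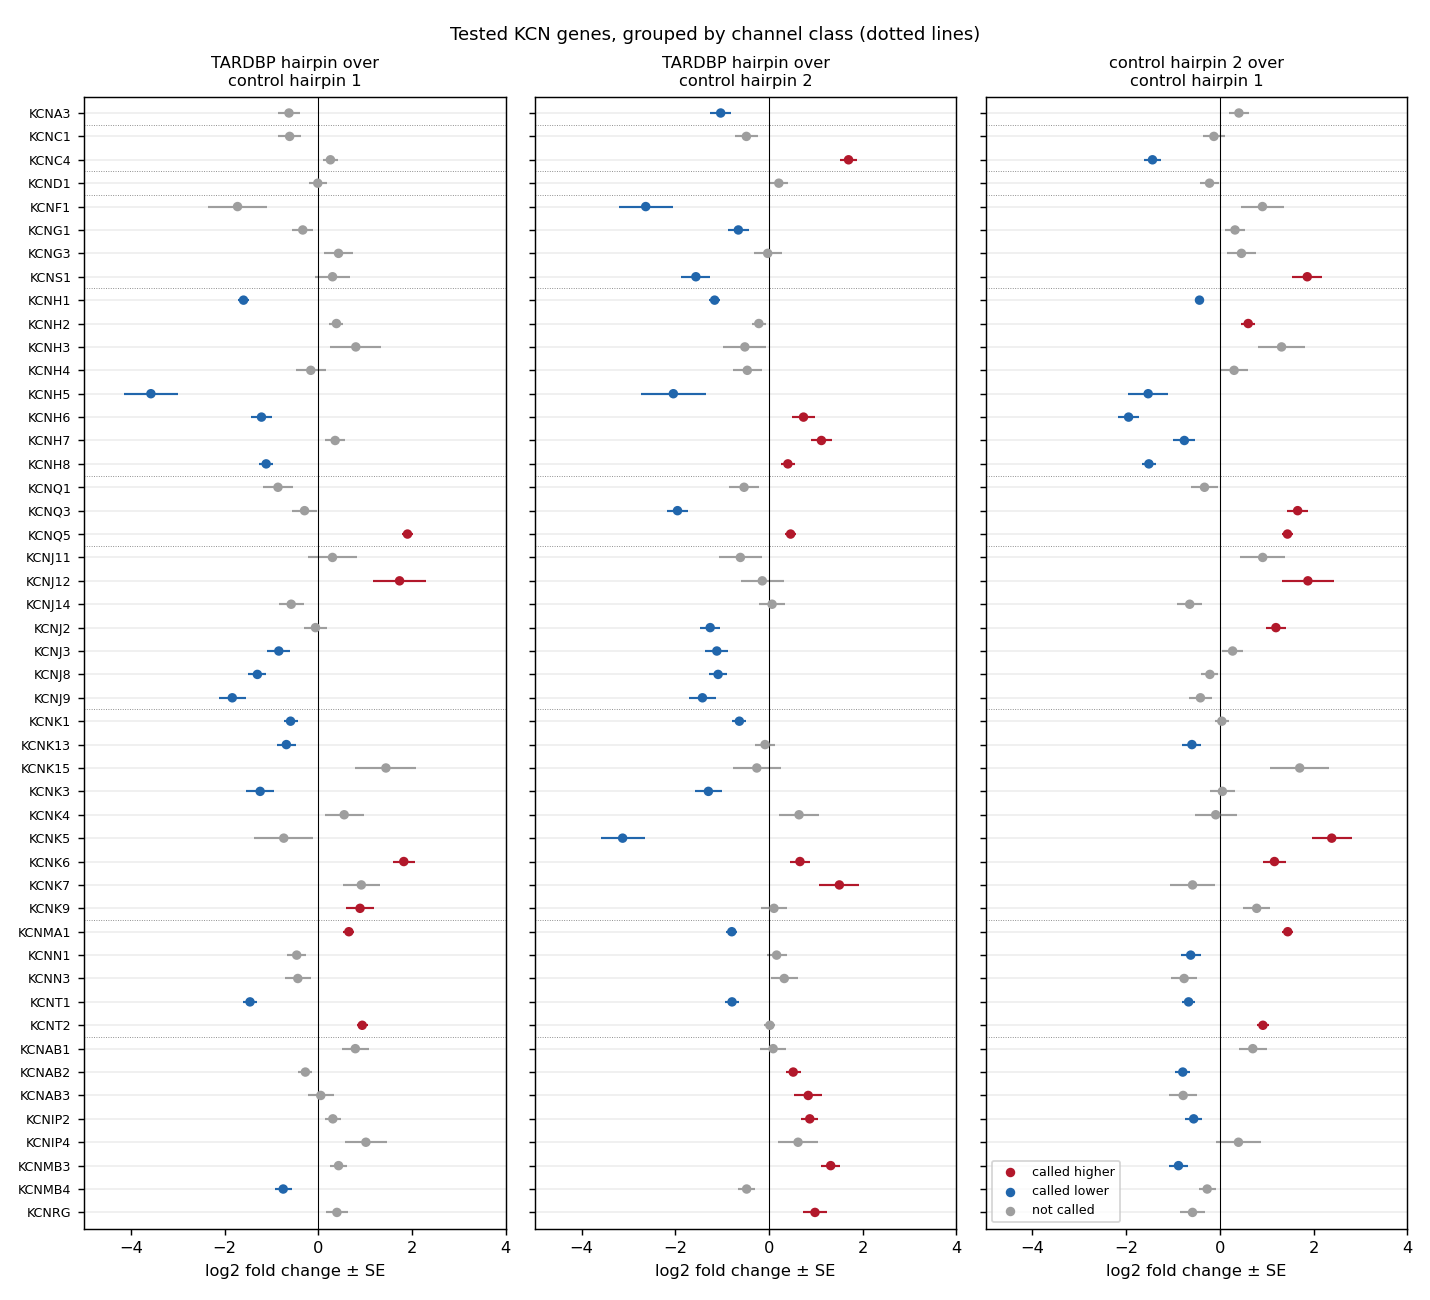
Log2FC with its SE for 48 of the 51 tested KCN genes, grouped by channel class, for the TARDBP hairpin over control hairpin 1, the TARDBP hairpin over control hairpin 2 and control hairpin 2 over control hairpin 1 (red, called higher; blue, called lower; grey, not called). KCNMA1 is called higher in the first panel and lower in the second, and the third panel shows 22 calls.

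The control hairpins also differed from each other in many potassium channel genes. With control hairpin 2 against control hairpin 1, 10 of 51 tested members were higher and 14 lower, which is 47.1% called against 43.2% of all genes and families (22.8% higher, 20.4% lower), with a median log2FC of -0.13. Both libraries of control hairpin 2 were above both of control hairpin 1 for 19 members (37% of all genes and families) and below them for 22 (37.8%). KCNMA1 averaged 43.5 ± 1.90 CPM with control hairpin 2 and 15.9 ± 1.74 CPM with control hairpin 1 (SD, n = 2 each; log2FC 1.45, SE 0.116, adjusted p = 7.55e-05). KCNQ5 averaged 17.2 ± 0.470 and 6.31 ± 0.279 CPM (log2FC 1.44, SE 0.125, adjusted p = 1.04e-04), and KCNQ3 10.3 ± 1.26 and 3.23 ± 1.04 CPM (log2FC 1.66, SE 0.227, adjusted p = 7.99e-04), in the same order. Both of these M-current genes were thus higher with control hairpin 2.

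The other members higher with control hairpin 2 than with control hairpin 1 were KCNT2 (log2FC 0.92), KCNJ2 (1.2), KCNK6 (1.17), KCNK5 (2.39), KCNS1 (1.87), KCNJ12 (1.88) and KCNH2 (0.61). For KCNJ12 the log2FC was 3.37 without control hairpin 1 replicate 2, and it did not pass at 1.18 without control hairpin 1 replicate 1 (adjusted p = 0.143). KCNH2 averaged 259 ± 25.0 CPM with control hairpin 2 and 170 ± 38.5 CPM with control hairpin 1, and its call was lost without control hairpin 1 replicate 1 or control hairpin 2 replicate 2. Of the 8 KCNH genes 5 were lower with control hairpin 2 (62.5%, against 20.4% of all genes and families). They were KCNH6 (log2FC -1.95), KCNH5 (-1.53), KCNH8 (-1.51), KCNH7 (-0.76) and KCNH1 (-0.43). Only KCNH6 and KCNH8 kept the call in every alternative. The call was lost without any one of 4 libraries for KCNH7, of 3 for KCNH5 and of 2 for KCNH1. The remaining falls included KCNC4 (-1.44), KCNMB3 (-0.88), KCNAB2 (-0.79), KCNT1 (-0.67), KCNN1 (-0.62), KCNK13 (-0.60) and KCNIP2 (-0.56). The falls numbered 7 without control hairpin 1 replicate 1, 8 without control hairpin 2 replicate 1 and 7 without control hairpin 2 replicate 2.

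When the 4 control libraries were pooled as 1 group, so that the difference between the control hairpins counted as spread, edgeR's quasi-likelihood test called 8 falls and 0 rises. At an unadjusted p below 0.05 that fit had 13 falls and 3 rises. The 8 falls included KCNH1, KCNT1, KCNJ8, KCNJ9, KCNJ3, KCNK3 and KCNK1, and over all genes and families that fit called 6.14% higher and 8.84% lower. Without pooling, edgeR called 9 rises among the members, as many as at an unadjusted p below 0.05, and DESeq2 called 7. The same 8 genes were called in all 12 alternatives tried for the comparison with the mean.

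Partners of potassium channels without a KCN symbol moved both ways. Of 21 listed genes 16 were tested, and 4 rose and 4 fell against the mean, with a median log2FC of -0.07. The share called, 50%, was near the 48.2% of all genes and families. The pacemaker channel gene HCN2 averaged 13.9 ± 3.37 CPM with the TARDBP hairpin, 42.5 ± 2.5 under control hairpin 1 and 24.5 ± 1.66 under control hairpin 2 (log2FC -1.22, SE 0.147, adjusted p = 2.99e-04). The kinase-anchoring protein gene AKAP5, whose product regulates M-channels, fell by 1.48 on the log2 scale (adjusted p = 1.84e-04) and the axonal adhesion gene CNTN2 by 1.14 (adjusted p = 9.84e-04). Against control hairpin 2 alone CNTN2 did not pass (log2FC -0.49, adjusted p = 0.0694). ANK3, whose product anchors KCNQ3 at the axon initial segment, rose (log2FC 0.62, adjusted p = 0.00151), as did the endoplasmic reticulum channel gene TMEM38B (0.79, adjusted p = 0.00104). CNTNAP2, which gathers Shaker-type channels beside the node of Ranvier, averaged 79.2 ± 14.6 CPM with the TARDBP hairpin, 21.0 ± 0.775 under control hairpin 1 and 130 ± 10.2 under control hairpin 2. Its rise against the mean (log2FC 0.60, adjusted p = 0.0028) joined a rise of 1.91 against control hairpin 1 with a fall of 0.72 against control hairpin 2.

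Among 16 genes that move potassium by pump or cotransport, 13 were tested, and 3 rose and 3 fell against the mean, with a median log2FC of -0.03. The share called, 46.2%, was near the 48.2% of all genes and families. The falls included subunits of the sodium-potassium pump, which builds the gradient that the channels use. ATP1B1, a beta subunit, averaged 28.8 ± 1.49 CPM with the TARDBP hairpin, 88.3 ± 2.04 under control hairpin 1 and 137 ± 13.5 under control hairpin 2 (log2FC -1.93, SE 0.0957, adjusted p = 6.95e-06). The regulatory subunit gene FXYD6 fell by 1.39 on the log2 scale (adjusted p = 5.51e-05). The rises were in the chloride cotransporter genes SLC12A4 (log2FC 0.59), SLC12A7 (0.53) and SLC12A2 (0.33). SLC12A4 and SLC12A7 also rose against each control hairpin, whereas SLC12A2 rose against control hairpin 1 (log2FC 0.62, adjusted p = 0.0016) and had a log2FC of 0.03 against control hairpin 2 (adjusted p = 0.819).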

How the data were processed

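Per the submitters' processing notes, the authors worked with hg19, STAR 2.5.2b and bcl2fastq. Each deposited file holds whole-number counts of 1 library, a line for every gene symbol or repeat family, not normalized. The sources used here do not give the counting tool, its annotation, its strand setting or its treatment of multi-mapped reads. Libraries were made with a strand-specific kit after removal of ribosomal RNA, per the labels' protocols.

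From these counts 1 edgeR 4.0.16 quasi-likelihood model with 3 hairpin groups was fitted in R 4.3.3 to all 6 libraries. Of 28953 genes and families 17163 passed filterByExpr (minimum count 10, minimum total 15). Scaling was by TMM, with 3 residual degrees of freedom. SE was taken as |log2FC| divided by the root of F. The model was checked on simulated counts in which the control hairpins had equal means, so the check does not cover the difference between them. Alternatives were RLE scaling, DESeq2 1.42.0, no filter, genes without repeat families, a replicate block, pooled controls and leaving out each library. Members called in any of the 4 comparisons are named, except some that are not reported here by name or in figures; counts and medians include them. Of each class, up to 3 of these with the lowest p against the mean are given by library. Members and lists were chosen with earlier results of these data known. Coordinates are GRCh38, from GENCODE release 29, and hg19 coordinates were not used here.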

Additional observations from a re-analysis of the deposited data

How the results depend on the processing

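Of 90 recounts of called members under an alternative, 83 stayed within 1.5 times the value reported. With the 4 control libraries pooled, 0 members were higher and 8 lower against the mean. DESeq2 called 7 members higher against control hairpin 2, where edgeR called 12. Leaving out 1 library gave 4 to 10 members higher against control hairpin 2, and 7 to 16 members lower for control hairpin 2 against control hairpin 1. Of 1171 recomputed changes of single called members and TARDBP, 1014 kept direction and call, 157 kept direction without a call and 0 changed direction. With the replicate number as a block, 9 members were higher and 16 lower against the mean. Whether the numbers pair the libraries was not settled. The differences between replicates 1 and 2 correlated across genes at -0.228 and -0.247 between the TARDBP hairpin and control hairpins 1 and 2. Between the control hairpins the correlation was 0.232. With 2 libraries per hairpin and members such as KCNH5, KCNF1, KCNK5 and KCNK7, whose knockdown libraries held 1 to 19 counts, depth limits the precision of the fold changes.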

Other observations

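Among the 20 KCN symbols that were left out, KCNQ1OT1 was the most abundant, with 112 and 125 CPM with the TARDBP hairpin, 228 and 219 CPM with control hairpin 1, and 140 and 121 CPM with control hairpin 2. It fell against the mean of both control hairpins (log2FC -0.52, adjusted p = 0.00193, edgeR quasi-likelihood test) and against control hairpin 1 (log2FC -0.91), and had a log2FC of -0.13 against control hairpin 2. The intronic transcripts KCNQ5-IT1 and KCNH1-IT1 had the direction of their host genes. KCNQ5-IT1 stood at 2.90 and 3.43 CPM with the TARDBP hairpin, 1.48 and 1.86 CPM under control hairpin 1, and 2.00 and 2.36 CPM under control hairpin 2 (log2FC 0.73, adjusted p = 0.0187). KCNH1-IT1 had 0.672 and 0.467, 1.78 and 1.42, and 0.895 and 0.754 CPM in the same order (log2FC -1.0, adjusted p = 0.0328), on 9 to 35 counts per library. Against control hairpin 2 alone, where both host genes were called, neither KCNQ5-IT1 (log2FC 0.53, adjusted p = 0.0918) nor KCNH1-IT1 (log2FC -0.52, adjusted p = 0.284) passed. Reads from introns of the host gene and from these transcripts cannot be told apart in counts per symbol.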
